A study of Mus musculus with 10 samples.

Results

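Transcripts of lactogen and growth hormone receptor signalling were examined in islets of mice with β cell deletion of FIT2. The genes were taken by symbol from the deposited table and are the receptors Prlr and Ghr, the kinase Jak2, the transcription factors Stat5a, Stat5b and Stat3, and the feedback inhibitors Cish, Socs1, Socs2 and Socs3, which make 10 of the 47340 genes listed. Each of the 10 symbols matched 1 gene. The libraries come from islets of male mice aged 12 wk on a chow diet, kept in culture overnight in complete CMRL medium before RNA was taken, with 1 library per mouse. The 5 FL mice carry floxed Fitm2 (Fitm2 fl/fl), the gene of FIT2, a protein of the endoplasmic reticulum that takes part in lipid droplet formation. The 5 KO mice are βFIT2KO mice, which carry the same floxed gene and also Cre recombinase driven by the rat insulin promoter, from the B6.Cg-Tg(Ins2-cre)25Mgn/J strain. No Cre-only islets with functional Fitm2 are among the libraries, so the loss of Fitm2 and the presence of the transgene cannot be told apart here. As background on the model, this Cre transgene is known to hold a segment of the human growth hormone gene, and human growth hormone can bind the mouse prolactin receptor. All 47340 identifiers of the table are mouse genes, so RNA from such a segment was not measured here.

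Prolactin, placental lactogens and growth hormone bind single-pass receptors that hold JAK2 on their inner side. JAK2 phosphorylates the receptor and STAT5, which enters the nucleus and acts on genes that hold a TTC and a GAA separated by a short spacer. Among those genes are the inhibitors CISH and the SOCS proteins, which bind the receptor or JAK2 and close the loop, and in islets this pathway is known for the growth of β cells in pregnancy.

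Every FPKM below is a level per exon length, so that levels of different genes can be set side by side, and every log2 fold change is KO over FL on the log2(FPKM + 1) scale, which understates changes of low genes. Summed over all genes, a library held 646233 to 675470 FPKM in FL and 627084 to 653292 FPKM in KO. The table holds no read numbers. Steps of 1 read among values under 0.3 FPKM put the depth of the other libraries at up to 2.41 times that of FL mouse 1 in FL, and at 1.52 to 2.06 times in KO. Fitm2 was at 23.3 ± 9.86 FPKM in FL against 6.95 ± 2.36 FPKM in KO (SD, n = 5), and the groups did not overlap. Of the β cell markers checked, Ins1, Ins2 and Iapp were listed at 0 in all 10 libraries, as was Gcg of the α cell markers, while Slc2a2 of the β cell list was at 245 ± 34.5 FPKM in FL. These are genes that islet cells use heavily, so a 0 in this table may be a failed estimate and not a level, and the summed marker levels below do not hold them. Islets were sequenced whole, and in such samples fewer cells of a type and less RNA per cell cannot be told apart.

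The largest changes among the 10 genes were at the feedback inhibitors. Cish and Socs2 rose 3.84 and 2.34 times by mean FPKM in KO islets, Prlr rose 1.28 times, and Ghr, Stat5a and Stat5b fell to 0.763, 0.783 and 0.846 times their FL level. Jak2, Stat3 and Socs3 were not called, and Socs1, under 1 FPKM in both groups, was not tested. Thus, of the 9 genes tested with limma at an adjusted p of at most 0.05, 3 were higher and 3 were lower in KO, where 25.5% of all 13065 tested genes were called, 9.05% as higher (1183 genes) and 16.5% as lower (2150 genes). Under median-ratio rescaling of the libraries the split over all genes was 1547 higher and 1685 lower. In 4 of the 9 the groups were free of overlap, against 19.1% of all tested genes. Of the 4, Cish and Socs2 had every KO mouse above every FL mouse (6.67% of all tested genes) and Ghr and Stat5a every KO mouse below (12.5%). All 9 averaged 1 FPKM or more among FL mice, so none was tested only because of its level in KO.

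**Figure D1:**
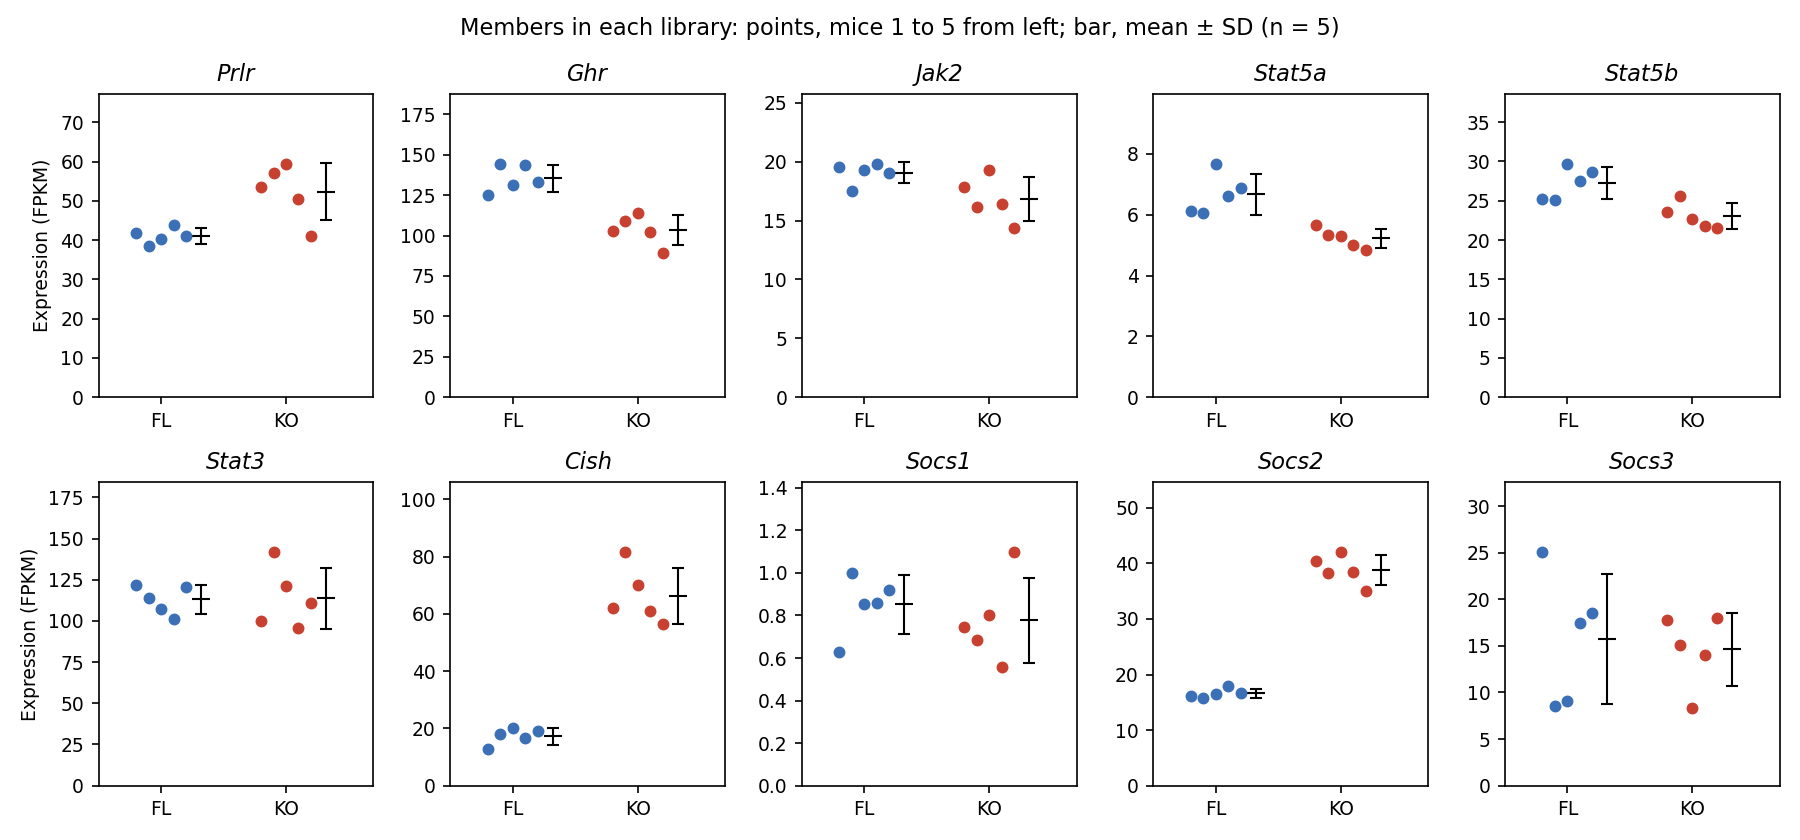
FPKM of the 10 genes in each library, with FL mice in blue and KO mice in red and the mean ± SD (n = 5) beside each group; every axis starts at 0. All KO points of Cish (56.6 to 81.6 FPKM) and Socs2 (35.1 to 42.0 FPKM) lie above the FL points, whereas those of Ghr and Stat5a lie below them.

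The FL and KO islets also differed in the order of these transcripts. In FL islets the order by mean FPKM was Ghr, Stat3, Prlr, Stat5b, Jak2, Cish, Socs2, Socs3, Stat5a and Socs1, from 136 ± 8.38 FPKM for Ghr to 0.852 ± 0.138 FPKM for Socs1 (SD, n = 5). The ranges of Jak2, Cish, Socs2 and Socs3 overlapped one another in FL, so the spread does not separate them, whereas the other neighbours in this order did not overlap. In KO islets Stat3 and Ghr overlapped at the top, and Cish came next at 66.3 ± 9.86 FPKM (SD, n = 5). Prlr and Socs2 followed Cish in KO, and each overlapped its neighbour, as did Jak2 and Socs3 further down. Stat5b lay below Socs2 in every KO library, whereas it lay above Socs2 in every FL library.

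Cish encodes a cytokine-inducible SH2 protein that binds phosphorylated receptors. Across mice 1 to 5, Cish was at 12.7, 17.9, 20.1, 16.5 and 19.0 FPKM in FL and at 62.0, 81.6, 70.1, 61.1 and 56.6 FPKM in KO. The lowest KO library was well above the highest FL library, with FL mouse 1 the lowest and KO mouse 2 the highest of all. The log2 fold change was 1.89 (SE 0.13, limma adjusted p = 2.34e-06), the rank 47 rise among the 13065 tested genes. An exact two-sided permutation test gave p = 0.00794, the smallest that 5 mice against 5 allow. Without any 1 mouse the log2 fold change stayed between 1.79 and 1.94.

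Cish lies on the plus strand of chromosome 9 from 107296026 to 107302784 (GENCODE release M21 of GRCm38). On the minus strand, the transcribed processed pseudogene Gm17040 and the antisense gene Gm17041 overlap it. The RefSeq windows from 250 bases before to 50 bases after a start (GRCm38.p6) were searched for the palindrome TTCNNNGAA, the spacing that STAT5 is known to bind, which reads the same on both strands. Socs2 had no window and was not searched. Windows were matched for 9 of the 10 genes, 14 in all. Of these, 3 held a match, in Cish, Prlr and Socs3, and the Cish window held it 2 times, at bases 1 and 12 counted from the start. Among all 32851 windows, 8.3% held at least 1 match and 0.457% held at least 2. The stretches with a match are printed 5′ to 3′ to show the letters behind these counts, with the matches in capitals.
Cish: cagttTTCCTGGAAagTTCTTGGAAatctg
Prlr: ggcaaaatgagTTCTAGGAAtaagggatat
Socs3: agaaaccagccTTCTTAGAAgggagggggg
The Cish stretch is chr9:107296654-107296683 on the plus strand, in an exon of Cish in GENCODE release M21. The Prlr stretch is chr15:10223785-10223814 on the plus strand, at base −110 from the start of the second of 3 Prlr windows and in an intron of Prlr in GENCODE. The Socs3 stretch is chr11:117969502-117969531 on the minus strand, at base −154 from a start and in an intron of Socs3. A match describes letters and is neither a site of binding nor a cause, and of the genes with one, Cish and Prlr rose while Socs3 was not called. Windows of Ghr, Jak2, Stat5a, Stat5b, Stat3 and Socs1 held no match, which says only that these letters are not in them.

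Socs2 encodes a suppressor of cytokine signalling known as a brake on the growth hormone receptor. It was at 16.2, 15.8, 16.5, 17.9 and 16.6 FPKM in FL and at 40.4, 38.2, 42.0, 38.4 and 35.1 FPKM in KO. Both groups were tight, and the lowest KO library lay far above the highest FL library. On the log2 scale the rise was 1.18 (SE 0.05, limma adjusted p = 1.3e-07), rank 146 among the rises. The gene spans 95385362 to 95417180 of chromosome 10, minus strand, with no other gene overlapping.

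Cish was also higher relative to Socs2 in every KO library. As the ratio of the FPKM of Cish to that of Socs2 within a library, which does not depend on how a library is scaled, the values were 0.784, 1.14, 1.22, 0.924 and 1.14 in FL and 1.54, 2.14, 1.67, 1.59 and 1.61 in KO. The groups did not overlap, with means of 1.04 ± 0.181 in FL and 1.71 ± 0.244 in KO (SD, n = 5). The ratios between genes were chosen after their values were seen and are given without a test.

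Socs3 and Socs1, which bind JAK kinases themselves and are known to answer interleukin 6 and interferon γ, were not among the called genes. Socs3 was at 25.1, 8.50, 9.06, 17.4 and 18.6 FPKM in FL and at 17.7, 15.1, 8.34, 14.0 and 18.0 FPKM in KO. The groups overlapped, with FL mouse 1 the highest and FL mice 2 and 3 among the lowest, and the coefficient of variation was 44.4% in FL and 26.8% in KO. On the log2 scale the difference was −0.03 (SE 0.29, limma adjusted p = 0.952), and it turned to 0.014 under median-ratio rescaling. Its SE was close in size to the whole change of Prlr (0.33). Socs1 was at 0.852 ± 0.138 FPKM in FL against 0.778 ± 0.201 FPKM in KO (SD, n = 5; exact two-sided permutation test, p = 0.484), with overlapping groups.

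**Figure D2:**
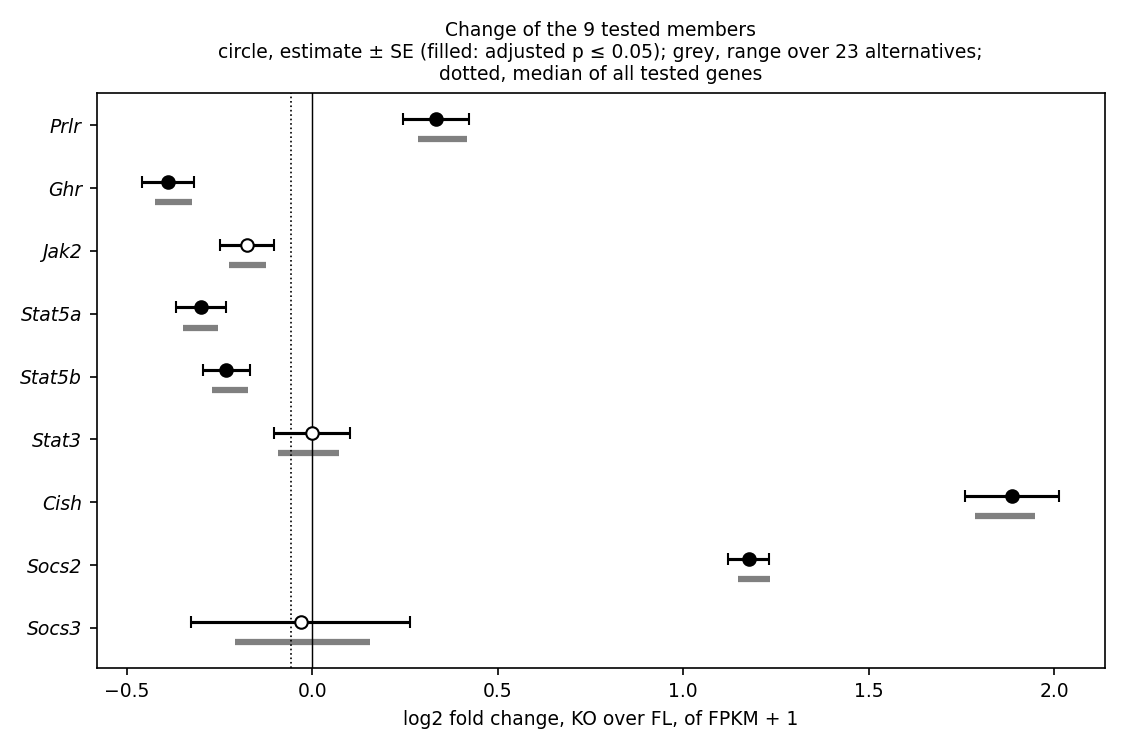
Log2 fold change, KO over FL, of the 9 tested genes, as the estimate ± SE (filled circle, adjusted p of at most 0.05; open circle, not called), with the range over 23 alternative settings as a grey bar and the median of all tested genes (−0.06) as a dotted line. Cish (1.89) and Socs2 (1.18) lie far to the right, while the bars of Stat3 and Socs3 cross 0.

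The receptors of lactogens and of growth hormone moved in opposite directions. Prlr encodes the prolactin receptor, which also binds placental lactogens, and was at 41.8, 38.5, 40.2, 43.8 and 41.0 FPKM in FL and at 53.6, 57.2, 59.5, 50.6 and 41.0 FPKM in KO. KO mice 1 to 4 lay above every FL mouse, and KO mouse 5 lay within the FL range. The log2 fold change of Prlr was 0.33 (SE 0.09, limma adjusted p = 0.0196), rank 1023 among the rises, and an exact two-sided permutation test gave p = 0.0317. A rank test with the same adjustment did not call it (exact Wilcoxon, adjusted p = 0.151). With 5 mice per group that test called only the 2500 genes whose groups did not overlap, so a gene with overlapping groups could not pass it. Prlr lies on the plus strand of chromosome 15 from 10177238 to 10349180, has 12 annotated transcripts of which 7 code for protein, and shares its span with Gm21973 on the same strand, so reads could not be assigned to a receptor isoform from gene-level FPKM.

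Ghr, the growth hormone receptor, was at 125, 145, 131, 144 and 133 FPKM in FL and at 103, 109, 114, 102 and 89.3 FPKM in KO. All 5 KO mice lay below the FL mice, with KO mouse 5 the lowest. The change was −0.39 on the log2 scale (SE 0.07, limma adjusted p = 0.00231; exact two-sided permutation test, p = 0.00794). Ghr lies on the same chromosome as Prlr, on the minus strand from 3317760 to 3583492. Of the β cell marker list, 6 of 7 tested markers were also lower in KO, against 16.5% of all tested genes, with summed levels of 2273 to 2844 FPKM in FL against 1511 to 2124 FPKM in KO and with Ins1, Ins2 and Iapp at 0. The part of this list in the falls of Ghr, Stat5a and Stat5b was not tested.

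Set against Ghr in the same library, Prlr was at 0.334, 0.267, 0.307, 0.305 and 0.308 times the Ghr level in FL and at 0.521, 0.524, 0.522, 0.495 and 0.459 times in KO. The groups were well apart, and KO mouse 5, whose Prlr lay in the FL range, also had the lowest Ghr of all and kept a ratio above that of every FL mouse. The mean ratio was 0.304 ± 0.024 in FL and 0.504 ± 0.0278 in KO (SD, n = 5).

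**Figure D3:**
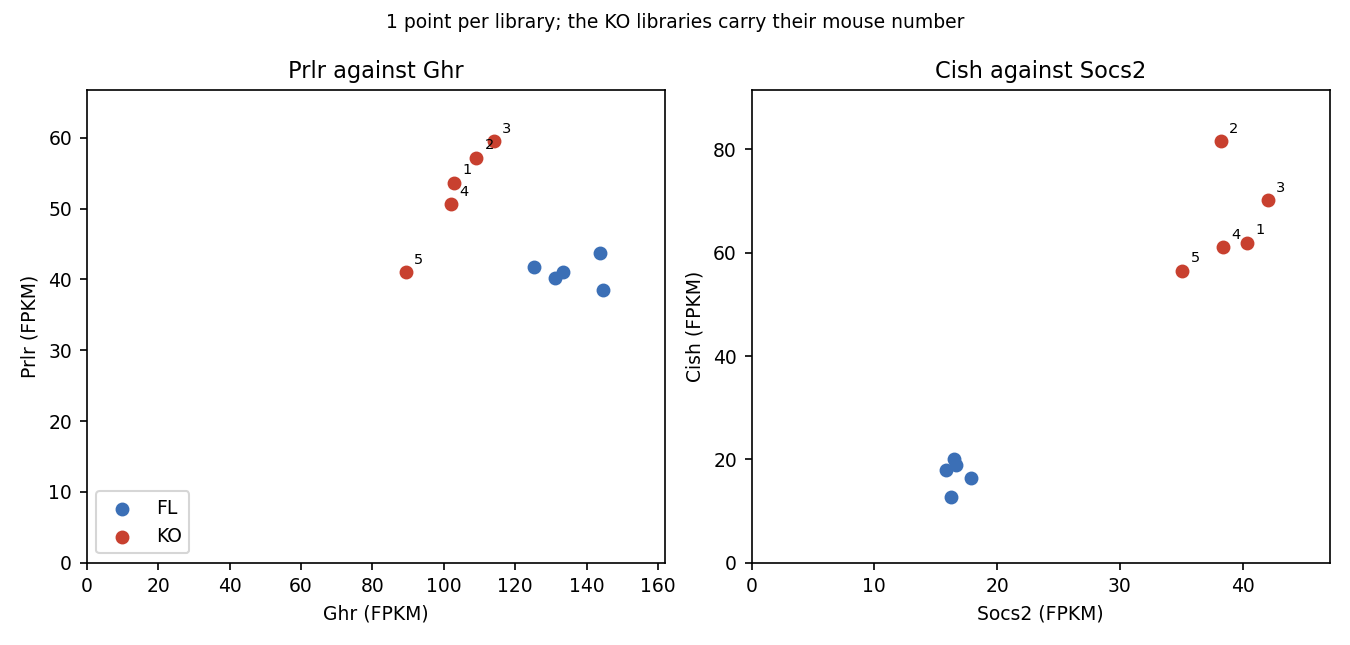
FPKM of Prlr against Ghr (left) and of Cish against Socs2 (right), 1 point per library with FL mice in blue and KO mice in red, on linear axes from 0; KO points carry the mouse number. In both plots the FL and KO libraries form separate clouds, and KO mouse 5 has the lowest level of all 4 genes among KO mice.

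Jak2, the kinase that both receptors use, was at 19.6, 17.5, 19.3, 19.8 and 19.0 FPKM in FL and at 17.9, 16.1, 19.3, 16.4 and 14.3 FPKM in KO. The KO mean was lower, but KO mice 1 and 3 lay within the FL range. The log2 fold change of −0.18 (SE 0.07) missed the threshold (limma adjusted p = 0.0976), and it passed without KO mouse 3 (log2 fold change −0.22, adjusted p = 0.0313). Over the 23 alternatives the adjusted p ran from 0.0313 to 0.219.

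Both STAT5 genes fell. Stat5a was at 6.13, 6.05, 7.68, 6.61 and 6.87 FPKM in FL and at 5.66, 5.32, 5.30, 4.99 and 4.84 FPKM in KO, so that the groups did not overlap. Its log2 fold change was −0.30 (SE 0.07, limma adjusted p = 0.00861), and it was called in each of the 23 alternatives. Stat5b, which had close to 4 times the level of Stat5a, was at 25.2, 25.2, 29.7, 27.5 and 28.6 FPKM in FL and at 23.5, 25.6, 22.7, 21.8 and 21.6 FPKM in KO. KO mouse 2 lay above the FL mice 1 and 2, and the other KO mice lay below every FL mouse. The log2 fold change of Stat5b was −0.23 (SE 0.06, limma adjusted p = 0.0217), and the call was lost without FL mouse 3 (0.0543), FL mouse 5 (0.054) or KO mouse 4 (0.0557), with rescaling of the libraries to the same sum (0.055), with the replicate number as a block (0.0802) and with an exact Wilcoxon rank test (0.102).

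The STAT5 genes are paralogs and neighbours on chromosome 11, Stat5b from 100780731 to 100850724 on the minus strand and Stat5a from 100859351 to 100885169 on the plus strand. Of the distinct 75-base stretches of their transcripts, the read length used, 5.12% of those of Stat5a and 6.99% of those of Stat5b are found in both genes, so a small part of the reads could have been split between them. The ratio of Stat5a to Stat5b was 0.245 ± 0.00781 in FL and 0.227 ± 0.0122 in KO (SD, n = 5), and the groups touched, with the highest KO and the lowest FL ratio both at 0.240.

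Stat3, which answers cytokines of the interleukin 6 family, follows Stat5a on chromosome 11 from 100885098 to 100939540 on the minus strand, and the genes overlap at their 3′ ends. It was at 122, 114, 107, 101 and 121 FPKM in FL and at 100.1, 142, 121, 95.6 and 111 FPKM in KO. The KO libraries held both the highest and the lowest values, and the log2 fold change was −0.00073 (SE 0.10, limma adjusted p = 0.997), turning to 0.047 under median-ratio rescaling.

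No ligand gene reached the level needed for a test. Gh and Prl3b1, which encode growth hormone and a placental lactogen, were listed at 0 in all 10 libraries, which may be a failed estimate in this table. Prl was listed at 0 in all FL libraries and at 0, 0, 0.0420, 0.0385 and 0 FPKM in KO. Prl3d1, another placental lactogen, was listed at 0 in all FL libraries and at 0.203, 0.384, 0.130, 0.359 and 0.352 FPKM in KO. Thus Prl3d1 was above 0 in each KO library and in no FL library, at a level under the 1 FPKM needed for a test.

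Among 16 other cytokine receptors, 11 were tested, with 2 higher, 4 lower and 5 not called (median log2 fold change −0.003), where 9.05% of all tested genes were higher, 16.5% were lower and the median was −0.06. Of the 11, Csf2rb and Osmr were tested only because of their KO level, and among the other 9 receptors 1 was higher and 4 were lower (median −0.09). The lower receptors were Cntfr, Il11ra1, Il6ra and Lifr. Cntfr, the receptor of ciliary neurotrophic factor, was at 72.2, 60.8, 79.2, 65.6 and 60.2 FPKM in FL and at 34.5, 37.9, 39.1, 27.6 and 32.7 FPKM in KO. Its KO levels were close to 0.508 times those in FL, without overlap (log2 fold change −0.96, SE 0.10, limma adjusted p = 8.47e-05). Il11ra1 fell from 17.2 ± 2.19 to 13.3 ± 0.552 FPKM, Il6ra from 27.7 ± 1.89 to 21.8 ± 1.60 FPKM and Lifr from 12.6 ± 0.365 to 10.1 ± 1.16 FPKM (SD, n = 5; limma adjusted p = 0.0098, 0.00365 and 0.00876), also without overlap, as was so for 19.1% of all tested genes. Il6st, which encodes the subunit gp130 that these receptors share, was at 115 ± 11.0 FPKM in FL against 108 ± 18.0 FPKM in KO and was not called (limma adjusted p = 0.582). Osmr, the oncostatin M receptor that also pairs with gp130, was at 0.921 ± 0.335 FPKM in FL against 1.17 ± 0.298 FPKM in KO (SD, n = 5) and was not called (limma adjusted p = 0.37).

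The higher receptors were Csf2rb and Ifngr2. Csf2rb, the β subunit shared by the receptors of interleukin 3, interleukin 5 and GM-CSF, was at 0.418, 0.312, 0.318, 0.422 and 0.362 FPKM in FL and at 3.66, 2.90, 3.59, 2.39 and 2.59 FPKM in KO. The groups were far apart (log2 fold change 1.55, SE 0.11, limma adjusted p = 2.74e-06), but the gene was tested only because of its KO level. Its near copy Csf2rb2, which shares 7.15% of the 75-base stretches of Csf2rb, was under 1 FPKM in both groups, at 0.424 ± 0.0358 FPKM in FL against 0.956 ± 0.103 FPKM in KO (SD, n = 5), without overlap. Ifngr2, a subunit of the interferon γ receptor, rose from 13.0 ± 2.60 to 18.6 ± 2.46 FPKM (log2 fold change 0.50, limma adjusted p = 0.0152). Of the macrophage and leukocyte markers, 2 of 5 tested were higher and none lower, against 9.05% and 16.5% of all tested genes, with summed levels of 117 to 143 FPKM in FL against 168.5 to 204 FPKM in KO and no marker at 0, and their part in these rises was not tested.

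Of 6 other JAKs and STATs tested, 1 was lower and none higher (median −0.11), where 16.5% of all tested genes were lower and 9.05% higher. This was Jak3, the kinase of receptors with the common γ chain, at 5.25 ± 0.18 FPKM in FL against 4.20 ± 0.462 FPKM in KO (SD, n = 5; log2 fold change −0.27, limma adjusted p = 0.0131). Jak1 was at 102 ± 4.60 FPKM in FL against 92.9 ± 7.79 FPKM in KO and was not called (limma adjusted p = 0.129). Of 16 further regulators, 2 were lower and none higher (median −0.10). Both are phosphatases that act on JAKs and STATs. Ptpn1 was at 32.9 ± 3.96 FPKM in FL against 26.1 ± 2.27 FPKM in KO (limma adjusted p = 0.019), a call lost in 2 of 23 alternatives, and Ptpn2 was at 29.1 ± 2.17 FPKM in FL against 25.7 ± 1.21 FPKM in KO (limma adjusted p = 0.0473; SD, n = 5), a call that held in 6 of 23 alternatives. Socs4, Socs5, Socs6 and Socs7, the other SOCS genes, were not called, with adjusted p from limma of 0.0685, 0.0824, 0.576 and 0.546.

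Of 15 genes known to rise in islets with pregnancy or lactogens, 13 were tested, with 9 higher, 2 lower and 2 not called (median log2 fold change 1.10), against 9.05% higher and 16.5% lower over all tested genes. Of these 13, 5 were under 1 FPKM in FL and were tested only because of their KO level. Among the 8 others, 4 were higher and 2 lower (median 0.37). This and the other lists were chosen with earlier results of these data known. Their counts beside the shares over all tested genes are therefore a description and not a test. Matn2, an extracellular matrix protein, was at 3.84, 4.70, 4.25, 4.27 and 3.38 FPKM in FL and at 61.5, 68.3, 69.6, 57.3 and 54.5 FPKM in KO. Tnfrsf11b, the secreted decoy receptor osteoprotegerin, was at 1.80, 1.76, 1.49, 1.53 and 1.59 FPKM in FL and at 59.9, 47.8, 36.5, 51.5 and 40.5 FPKM in KO. For both genes the KO libraries were far above every FL library, with log2 fold changes of 3.64 and 4.18 (limma adjusted p = 3.83e-10 and 1.45e-09). Ivd and Ehhadh, enzymes of leucine and of peroxisomal fatty acid breakdown, were higher by 0.87 and 0.72 on the log2 scale (limma adjusted p = 0.000801 and 2.9e-05).

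The genes of this list that were close to 0 in FL included the claudin Cldn8, at 0.0613 ± 0.0477 FPKM in FL against 41.9 ± 8.71 FPKM in KO, and Lrrc55, an auxiliary subunit of potassium channels, at 0.0488 ± 0.0485 FPKM in FL against 16.0 ± 4.73 FPKM in KO (SD, n = 5). Tph1, the tryptophan hydroxylase of serotonin synthesis, was at 0.0272, 0.0351, 0, 0.130 and 0.0515 FPKM in FL and at 11.5, 16.4, 10.3, 10.9 and 9.90 FPKM in KO, with KO mouse 2 above the other KO mice. Its paralog Tph2 was at 0.441 ± 0.370 FPKM in FL against 3.29 ± 0.685 FPKM in KO, and Neb at 0.206 ± 0.117 FPKM in FL against 1.59 ± 0.261 FPKM in KO (SD, n = 5). The size of these log2 fold changes, from 1.10 for Neb to 5.32 for Cldn8, rests on the pseudocount of 1, and since these 5 genes were tested only because of their KO level, their calls are no support for a difference beyond the levels themselves.

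The genes of this list that were called as lower were Slc2a2 and Ccnd2. Slc2a2, the glucose transporter GLUT2 and also one of the β cell markers, fell from 245 ± 34.5 to 151 ± 25.0 FPKM (log2 fold change −0.70, limma adjusted p = 0.00211). Ccnd2, the main D cyclin of β cells, was at 231, 311, 302, 252 and 299 FPKM in FL and at 151, 268, 180, 223 and 182 FPKM in KO. The groups overlapped, since KO mouse 2 lay among the FL mice, and the log2 fold change of −0.49 (limma adjusted p = 0.03) passed in 14 of 23 alternatives. Irs2, which encodes an insulin receptor substrate, was at 11.0 ± 0.846 FPKM in FL against 10.7 ± 0.329 FPKM in KO (SD, n = 5) and was not called (limma adjusted p = 0.69).

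Of 4 genes known to fall in islets with lactogens, 2 were lower and 2 not called (median −0.32), where 16.5% of all tested genes were lower. Bcl6, a transcriptional repressor, was at 3.40, 3.16, 3.37, 3.13 and 3.22 FPKM in FL and at 2.48, 2.14, 1.87, 2.39 and 2.54 FPKM in KO. All KO libraries lay lower than all FL libraries (log2 fold change −0.38, limma adjusted p = 0.00333). Cdkn1b, the cyclin kinase inhibitor p27, fell from 44.3 ± 2.10 to 30.9 ± 4.91 FPKM (limma adjusted p = 0.00358), whereas Men1, which encodes menin, was at 39.0 ± 3.89 FPKM in FL against 42.3 ± 1.63 FPKM in KO and was not called (limma adjusted p = 0.227; SD, n = 5).

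**Figure D4:**
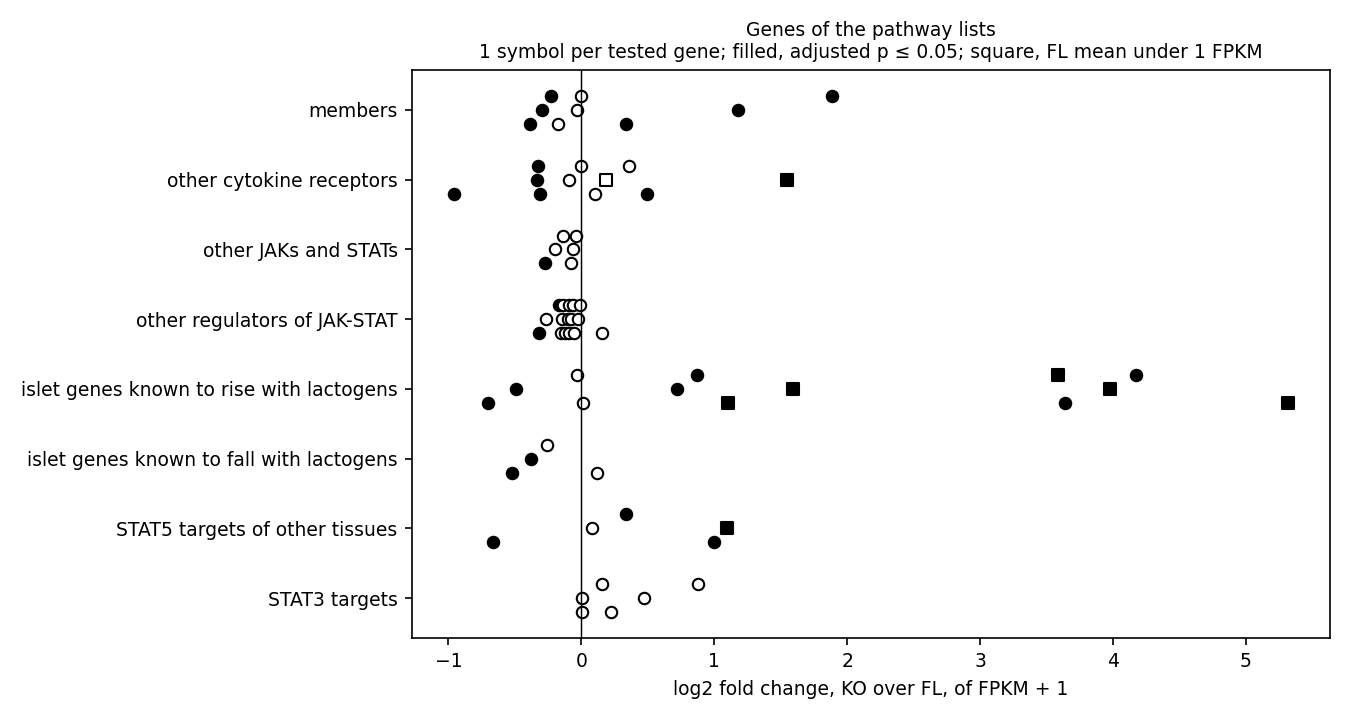
Log2 fold change, KO over FL, of each tested gene of the pathway lists (filled, adjusted p of at most 0.05; open, not called; square, FL mean under 1 FPKM). The islet genes known to rise with lactogens reach 5.32 (Cldn8) and also hold 2 called falls, whereas the called genes among the other JAKs, STATs and regulators are Ptpn1 (−0.32), Jak3 (−0.27) and Ptpn2 (−0.17).

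Genes known as STAT5 targets in liver, mammary gland or blood cells were mixed. Of 9, 5 were tested, with 3 higher, 1 lower and 1 not called (median 0.33). Without Igf1, which was tested only because of its KO level, 2 of 4 were higher and 1 was lower (median 0.21), against 9.05% higher and 16.5% lower over all tested genes. The milk protein genes Csn2 and Wap were listed at 0 in all 10 libraries. Igf1, a growth hormone target in liver, was at 0.995, 1.20, 1.17, 0.472 and 0.991 FPKM in FL and at 2.80, 2.31, 3.95, 3.72 and 3.29 FPKM in KO. The groups did not overlap (log2 fold change 1.10, SE 0.14, limma adjusted p = 0.000282), and FL mouse 4 stood below the other FL mice. Igfals, whose product binds IGF1 complexes in blood, rose from 24.4 ± 7.29 to 49.8 ± 14.6 FPKM and the kinase gene Pim1 from 3.63 ± 0.297 to 4.84 ± 0.574 FPKM (SD, n = 5; limma adjusted p = 0.00968 and 0.011). Pim1 passed in 20 of 22 alternatives, with an adjusted p of up to 0.0642. Ccnd1, cyclin D1, fell from 79.8 ± 8.08 to 49.8 ± 4.21 FPKM (log2 fold change −0.67, limma adjusted p = 0.000197), and Bcl2l1, the survival gene of BCL-XL, was not called (limma adjusted p = 0.319). All 5 tested markers of stellate cells and fibroblasts were also higher in KO, against 9.05% of all tested genes, with summed levels of 12.1 to 20.6 FPKM in FL against 24.4 to 33.7 FPKM in KO and none at 0, and their part in the rise of Igf1 was not tested.

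Of 6 genes known as STAT3 targets, none was called by limma (median 0.19), and 1 had an unadjusted p under 0.05, where 25.5% of all 13065 tested genes were called and 4928 had such a p. This was Lcn2, at 4.60, 3.33, 3.60, 2.29 and 4.07 FPKM in FL and at 10.5, 12.3, 2.53, 5.58 and 10.04 FPKM in KO. The KO mice were widely spread, with KO mouse 3 within the FL range, and the adjusted p was 0.0706 from limma, 0.00311 without KO mouse 3 and 0.0464 with sample weights, and above 0.05 in the other 21 alternatives.

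Of the markers of other cell types, to be read against 9.05% higher and 16.5% lower over all tested genes, 3 of 5 endothelial markers were higher (summed level 144 to 167 FPKM in FL, 160.4 to 223 FPKM in KO). None of the 5 acinar markers was called, with summed levels of 3152 to 7868 FPKM in FL against 2025 to 15095 FPKM in KO, and 1 duct marker was higher and 1 lower of 4 tested, where the higher one, Cftr, was tested only because of its KO level (594 to 659 FPKM in FL, 512 to 642 FPKM in KO). Of the α cell markers 1 of 4 tested was lower (35.0 to 48.8 FPKM in FL, 36.6 to 51.9 FPKM in KO), as was 1 of 4 δ and PP cell markers (8261 to 22082 FPKM in FL, 12956 to 18208 FPKM in KO).

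The libraries of a group could also be compared mouse by mouse. After the group means of log2(FPKM + 1) were subtracted, the gene whose deviations over the 10 libraries were most like those of Cish was Numb (Pearson r 0.978), a cell fate determinant. For Socs2 it was Trappc11 (0.983), for Prlr Cep192 (0.981), for Ghr Wdr82 (0.971), for Stat5a Pgbd5 (0.96) and for Stat5b Eva1c (0.975). These are the highest of 13065 values for each gene and are given as a description, since all genes of a library share its scaling and depth. Of these 6 genes, Trappc11 and Pgbd5 were themselves called, both as lower in KO (limma adjusted p = 0.0069 and 0.00748).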

How the data were processed

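RNASeq was performed on islets of 5 FL and 5 KO mice, with strand-specific libraries of polyadenylated RNA sequenced as single reads of 75 nt. The values are FPKM per gene and mouse in a single table, as deposited by the authors, and the submitters' processing notes name STAR 2.5.2a, Cuffnorm 2.2.1 and mm10. The annotation release and whether reads were counted by strand are not given in the sources used here. The table holds no comparison of the authors, and 0 of its columns were left unused. In R 4.3.3, limma 3.58.1 (lmFit and trended eBayes, no covariates) was fitted to log2(FPKM + 1) of the 13065 genes that averaged 1 FPKM or more in either group. Adjusted p refers to the Benjamini-Hochberg method over these genes, at a threshold of 0.05. For single genes an exact permutation test, two-sided, was added. The values of 1 gene of the lists are not reported here. The procedure was tested on simulated data. The 10 genes and the lists were chosen with earlier results of these data known. Named are those 10, Fitm2, up to 6 called genes per list by size of change, up to 3 others by level, and markers that touch a result. Neb, Ivd, Ehhadh, Irs2, Lcn2, Men1, Osmr, Cftr, Csf2rb2 and the other SOCS genes were added after their values were seen. For 9 of the 11 identifiers of the 10 genes and Fitm2, the version matched GENCODE release M21 (GRCm38), and for Jak2 and Socs1 only the version differed. Promoter windows came from RefSeq (GRCm38.p6). Summaries used numpy 2.4.6 and pandas 2.3.3 under Python 3.11.15, and plots used matplotlib 3.10.9. Alternatives were other pseudocounts (0.1, 0.01) and filters (none, a mean of 5 FPKM), 4 rescalings, other limma settings, a rank test, a replicate block and leaving out each mouse, 23 in all.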

Additional observations from a re-analysis of the deposited data

Results flagged for a closer look

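In 51 genes, which are the 10, Fitm2 and the genes of the pathway lists that are named and not at 0 in every library, the 100 groups of 5 mice with differing values were checked for a mouse far from the others of its group, as the gap to the nearest mouse over the range of the group (Dixon's ratio). A ratio this large is met by chance in about 5% of groups, and 6 were found. For Tph1 in KO the ratio was 0.761, with KO mouse 2 at 16.4 FPKM and the next at 11.5 FPKM. For Tph2 in FL it was 0.878, with FL mouse 1 at 1.10 FPKM and the next at 0.327 FPKM. For Pim1 in FL it was 0.758, with FL mouse 3 at 4.15 FPKM and the next at 3.59 FPKM. For Igf1 in FL it was 0.716, with FL mouse 4 at 0.472 FPKM and the next at 0.991 FPKM. For Neb in KO it was 0.796, with KO mouse 5 at 1.13 FPKM and the next at 1.64 FPKM. For Socs5 in FL it was 0.751, with FL mouse 4 at 13.1 FPKM and the next at 12.0 FPKM. None of the 10 receptor, JAK, STAT and SOCS genes was among them.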

How the results depend on the processing

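Cish, Socs2, Ghr and Stat5a kept their direction and their call in all 23 alternatives, with log2 fold changes of 1.79 to 1.95, 1.15 to 1.23, −0.42 to −0.33 and −0.35 to −0.25. Prlr passed in 22 and was lost with the exact Wilcoxon rank test (0.33, adjusted p = 0.151), and it ran from 0.29 to 0.42 without each mouse in turn. The rank test called only genes whose groups did not overlap, so Prlr and Stat5b, whose groups overlapped, could not pass it. Jak2 passed only without KO mouse 3, with a range of −0.22 to −0.12 without each mouse. Stat5b passed in 17 of 23 and was lost with rescaling to the same sum (−0.19, adjusted p = 0.055), with the rank test (−0.23, adjusted p = 0.102), and without FL mouse 3, FL mouse 5 or KO mouse 4 (range −0.27 to −0.20). Stat3 turned positive under median-ratio (0.047), upper-quartile (0.048), quantile (0.072) and same-sum (0.043) rescaling and ran from −0.083 to 0.058 without each mouse. Socs3 turned positive under the same rescalings (0.014, 0.015, 0.020 and 0.0092) and with sample weights (0.11) and ran from −0.21 to 0.16. Irs2 turned to 0.011, 0.012, 0.018 and 0.0065 under the rescalings. The cause was not tested. Over the named genes of the pathway lists beside the 10, 804 values kept direction and call, 30 lost the call and 6 gained it, and no value turned other than the 4 of Irs2. FL and KO mice share replicate numbers in the labels. The deviations of same-numbered libraries had correlations of −0.102 to 0.00305, and 0 of 5 FL libraries was most like its own number. No pairing by number was seen, but 5 pairs are too few to exclude a weak one. With the number as a replicate block, 2368 genes were called in place of 3333, and Stat5b was not (−0.23, adjusted p = 0.0802). Genes under 1 FPKM, Socs1 and Prl3d1 among them, are limited by depth, which FPKM do not give.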
